A study of Mus musculus with 25 samples.

Results

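The type 1 cytokines and chemokines described here are Ifng, Tnf, Lta, Csf2, Xcl1, Ccl3, Ccl4 and Ccl5, 8 of the 46078 genes in the count table, each found by matching its Ensembl identifier to its symbol. All 8 passed the filter on low counts and were followed across the 8 cell populations that were sequenced. Group 1 innate lymphoid cells (G1-ILCs) comprise natural killer (NK) cells, which circulate, and type 1 innate lymphoid cells (ILC1s), which stay in tissue. Both sense cytokines such as IL-12 and IL-18 and activating ligands, and answer by making interferon-gamma together with cytokines of the tumour necrosis factor family and chemokines that call in other cells. Several of these genes are held ready for fast use: their transcripts can be made within a short time of a signal and are degraded quickly, in part through AU-rich elements in the 3' untranslated region (UTR) that are bound by decay proteins such as tristetraprolin (Zfp36).

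All cells came from wild type C57BL/6 mice with no treatment named in the labels, and all were sorted as CD3-NK1.1+NKp46+. The groups were small intestinal lamina propria ILC1s (LPL ILC1s; CD27+IL-7R+; n = 4), salivary gland G1-ILCs (SG G1-ILCs; CD49a+CD49b+; n = 2), adult liver ILC1s with the IL-7 receptor (AL 7R+ ILC1s; CD49a+, CD49b low, IL-7R+; n = 3) and without it (AL 7R- ILC1s; CD49a+, CD49b low, IL-7R-; n = 4), bone marrow immature ILC1s (BM iILC1s; CD49a+, CD49b low; n = 3), fetal liver G1-ILCs (FL G1-ILCs; intermediate for CD49a and CD49b; E18.5; n = 4), and CD49a-CD49b+ NK cells from adult liver (AL NK cells; n = 2) and bone marrow (BM NK cells; n = 3). Adult mice were 8 weeks old. The LPL gate did not use CD49a or CD49b. No stimulation is named for the sequenced cells, which went from the sorter into lysis buffer.

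Library totals ran between 2302643 and 7995906 counts (median 4603579). FL replicates 2 and 3 had nearly the same counts (chi-square per degree of freedom 1.18, against 3.51 to 12.4 for the 28 other replicate pairs), so they were summed and counted as 1 library, which leaves 24 libraries and n = 3 for FL G1-ILCs. Of the gate genes, Il7r and Itga1 followed the sort in most groups. Il7r averaged 735, 541 and 1117 CPM (read counts scaled to library size) in LPL ILC1s, AL 7R+ ILC1s and BM iILC1s, against 1.71 CPM in AL 7R- ILC1s and 0.849 CPM in FL G1-ILCs, and Itga1 (CD49a) averaged 101 to 675 CPM in all ILC groups, against 3.31 and 2.72 CPM in AL and BM NK cells. Itga2, which encodes the CD49b used to gate SG G1-ILCs as positive, averaged only 11.5 CPM there, against 121 CPM in AL NK cells. Of the 6 gate genes, 1 was higher and 5 lower in LPL ILC1s than in AL 7R+ ILC1s (median log2 fold change -1.43). Ncr1 (NKp46) and Cd27, both used as positive in the LPL gate, were among the lower. Against AL NK cells 2 were higher and 4 lower, Ncr1 among the lower. LPL ILC1s also carried Kit at 595 to 728 CPM and Il22 at 22.9 to 192 CPM, genes known from ILC3s; the 9 ILC3 markers summed to 667 to 947 CPM in LPL ILC1s and to at most 126 CPM in any other library, with none of the 9 at 0 in LPL ILC1s. The 16 myeloid markers summed to 790 to 1932 CPM in BM iILC1s, 1003 and 1047 CPM in SG G1-ILCs, 589 and 672 CPM in AL NK cells, and at most 528 CPM elsewhere, and the 10 epithelial markers to 1246 and 1435 CPM in SG G1-ILCs and at most 119 CPM elsewhere. S100a8 and S100a9 were at 0 in SG G1-ILCs, as they were with Cd14, Mpo and Elane in AL NK cells. Against AL 7R- ILC1s, however, SG G1-ILCs had 10 of 14 tested myeloid genes higher and 0 lower (71.4% called, against 32.4% of all genes). Cd14, C1qb, Cebpb and Lyz2 were among the higher. Of 14 myeloid genes tested, AL 7R+ ILC1s had 0 higher and 2 lower than AL NK cells, Itgam and Ly6c2 (14.3% called, against 15.6% of all genes). Against BM iILC1s 0 were higher and 12 lower (85.7%, against 8.06%), with Cd14, Lyz2 and C1qb among the lower. The 12 T cell markers summed to 1494 to 1688 CPM in LPL ILC1s, 1229 to 1801 CPM in liver ILC1s, BM iILC1s and FL G1-ILCs, and 502 to 737 CPM in SG G1-ILCs and both NK groups. Of the 11 tested, 7 were higher and 2 lower in LPL ILC1s than in AL 7R+ ILC1s, and 11 higher than in AL NK cells. The shares of all genes called were 51.0% and 46.7%. Although cells were sorted as CD3-, Cd3e averaged 16.9 CPM in LPL ILC1s, 17.4 CPM in AL 7R- ILC1s and 147 CPM in BM iILC1s, against 0 counts in AL NK cells. The part of cells of these other types in the values of the 8 genes was not tested. Salivary gland was digested with collagenase at 37 °C. Intestine was incubated in EDTA at 37 °C and then digested with collagenase, for which no temperature is given. Liver was dissociated mechanically and marrow was flushed. Tissue and dissociation therefore cannot be told apart in comparisons with SG G1-ILCs or LPL ILC1s, nor between these 2 groups. In bulk samples, fewer cells making a transcript and less transcript in each cell also cannot be told apart.

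AU-rich elements were counted in the 3' UTRs first, since they separate the 8 genes by a feature that the measured levels did not enter. The sequence ATTTA occurred 9 times in the 317-base 3' UTR of Csf2, and 0 of 1857 mouse genes with a 3' UTR within 20% of that length held as many. Tnf held 8 copies in 764 bases, a number reached by 0.292% of genes of like length, Ifng 6 in 631 bases (1.19%) and Ccl3 5 in 409 bases (1.11%). Lta (3 copies), Ccl4 (2) and Xcl1 (1) were not unusual for their lengths, as 12.7%, 12.4% and 17.8% of genes of like length held as many, and Ccl5 held none. The longer element TTATTTATT occurred 5 times in Tnf, 4 times in Csf2 and once in Lta, and 6.98% of 21037 genes had it. The densest 30-base stretches of the 4 genes with the most copies read 5' to 3' on the mRNA strand (GRCm38), with ATTTA in capitals. They are matches to letters, not measured binding sites.
Csf2 (chr11:54247325-54247354, minus strand): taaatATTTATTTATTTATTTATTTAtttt
Tnf (chr17:35199677-35199706, minus strand): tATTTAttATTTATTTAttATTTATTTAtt
Ifng (chr10:118445332-118445361, plus strand): cctATTTAttaatATTTAaaactATTTAta
Ccl3 (chr11:83648075-83648104, minus strand): ttgaaattttATTTAATTTAatcctattgg

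The 8 genes differed widely in abundance once scaled for transcript length. Averaged over the 24 libraries, Ccl5 had 2319 CPM per kb of exon, Ccl4 1124, Xcl1 591, Ccl3 484, Csf2 118, Ifng 104, Tnf 6.07 and Lta 3.73. The genes also differed in how much they varied between populations: the highest group mean was 154 times the lowest for Csf2, 128 times for Ccl3, 62.8 times for Ccl4, 12.7 times for Ifng, 10.3 times for Lta, 8.64 times for Tnf, 8.09 times for Xcl1 and 3.81 times for Ccl5. LPL ILC1s had the highest mean for 7 of the 8 genes, and AL 7R- ILC1s for Ccl5. All 8 genes differed among the groups (edgeR's quasi-likelihood test, Benjamini-Hochberg adjusted p between 1.36e-20 for Csf2 and 4.08e-05 for Tnf), as did 77.7% of the 14123 genes tested. Adjusted p values below come from the same fit and are taken over all genes tested.

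**Figure D1:**
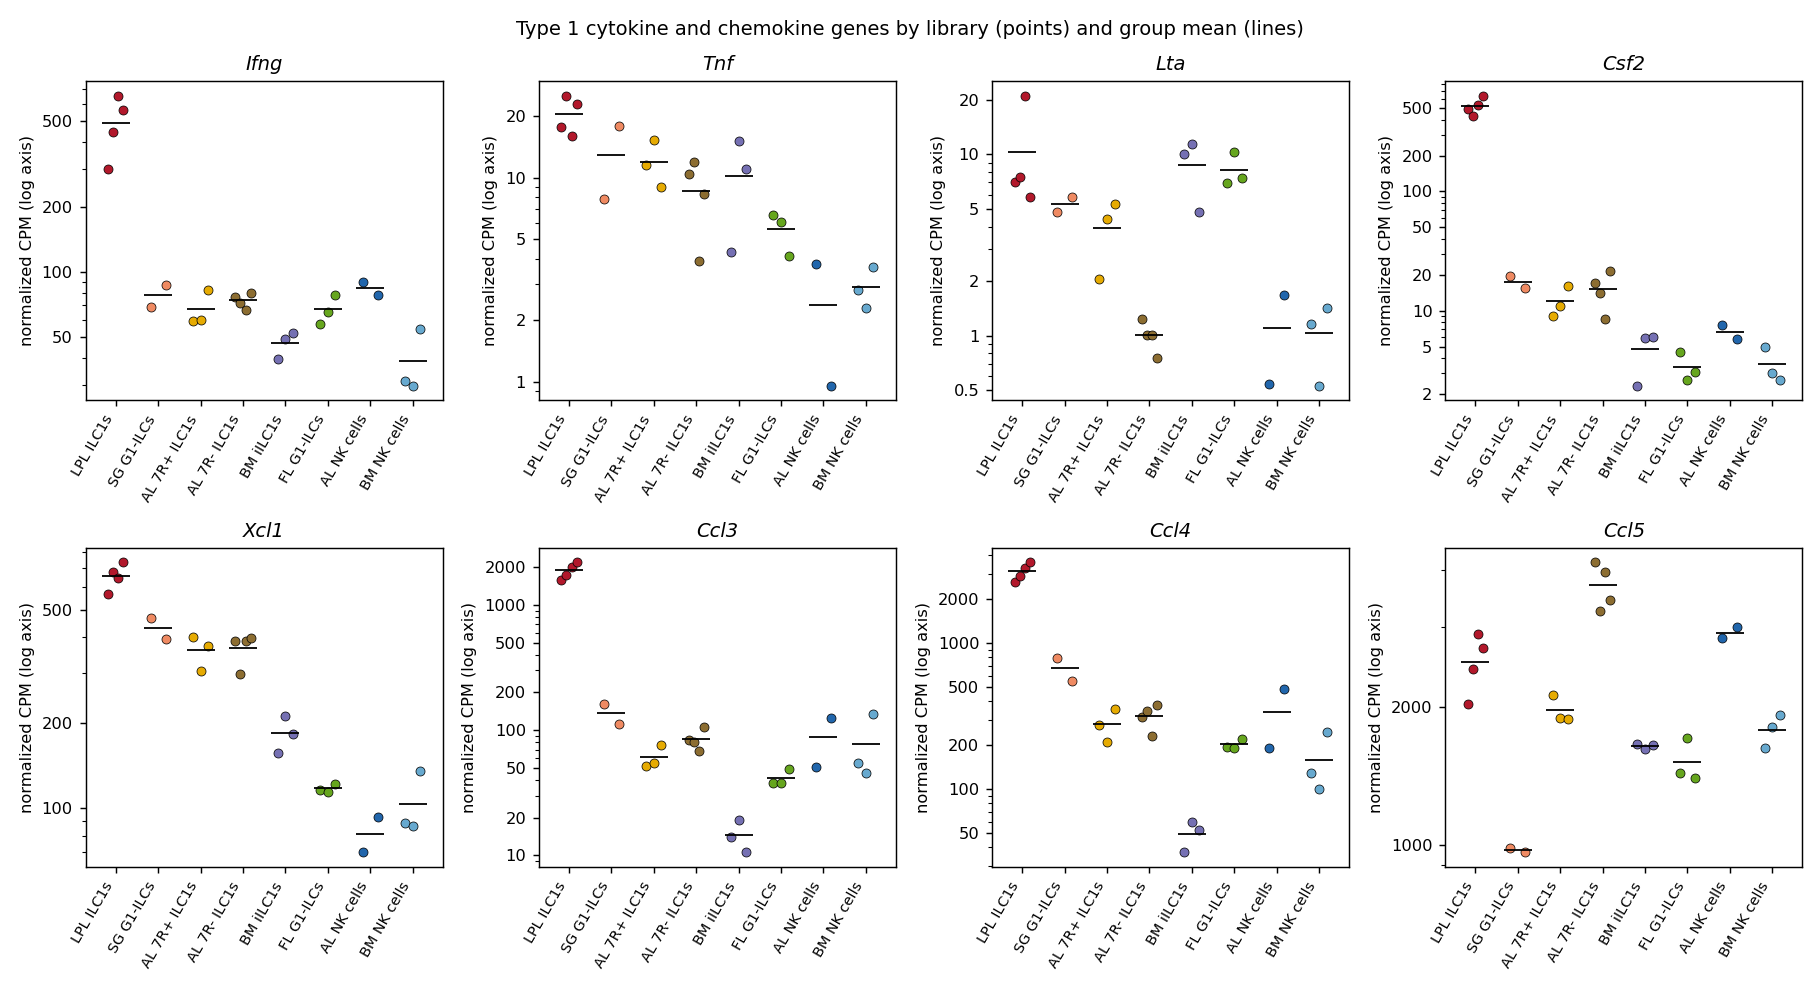
Normalized CPM (log axis) of the 8 genes, 1 panel per gene, with a point for each of the 24 libraries and a line at each group mean, groups in the order LPL ILC1s to BM NK cells. Csf2 lies between 428 and 637 CPM in LPL ILC1s and at 21.6 CPM or less in every other library, whereas Ccl5 lies between 962 and 4163 CPM throughout.

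Ifng (chr10:118441046-118445892, plus strand) encodes interferon-gamma, which activates macrophages and raises antigen presentation. LPL ILC1s had 299.5, 442.5, 654.7 and 560.4 CPM and SG G1-ILCs 68.8 and 87.2 CPM. AL 7R+ ILC1s had 59.2, 59.6 and 82.2 CPM and AL 7R- ILC1s 76.5, 71.8, 66.8 and 79.9 CPM. BM iILC1s had 39.7, 48.7 and 52.1 CPM, FL G1-ILCs 57.6, 65.6 and 78.5 CPM, AL NK cells 89.5 and 78.4 CPM, and BM NK cells 31.3, 29.8 and 54.4 CPM. The 4 LPL libraries stood above all 20 others, and the marrow libraries, at 29.8 to 54.4 CPM, lay below the salivary gland, adult liver and fetal liver libraries, at 57.6 to 89.5 CPM. Of the 7 steps between neighbours in the order of group means, only that between LPL ILC1s (489 ± 153 CPM, SD, n = 4) and AL NK cells (83.9 ± 7.83 CPM, n = 2) passed the test, at a log2 fold change of 2.54 (SE 0.26, adjusted p = 6.14e-09). Neither liver ILC1 subset differed detectably from AL NK cells in Ifng, with log2 fold changes of -0.19 (SE 0.24, adjusted p = 0.653) for 7R- ILC1s and -0.32 (SE 0.25, adjusted p = 0.478) for 7R+ ILC1s. AL NK cells had more Ifng than BM NK cells (log2 fold change 1.13, SE 0.25, adjusted p = 0.0113), but the call was lost when any 1 of 4 of these 5 libraries was left out. The adjusted p was then 0.159 and 0.0587 without AL NK replicates 1 and 2, and 0.0696 and 0.0886 without BM NK replicates 1 and 2.

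Csf2 (chr11:54247271-54249667, minus strand) encodes GM-CSF, which acts on myeloid cells. LPL ILC1s had 490.2, 427.6, 531.4 and 637.4 CPM and SG G1-ILCs 19.5 and 15.7 CPM. AL 7R+ ILC1s had 9.08, 11.04 and 16.2 CPM and AL 7R- ILC1s 17.2, 14.2, 8.54 and 21.6 CPM. BM iILC1s had 2.36, 5.89 and 5.99 CPM, FL G1-ILCs 4.49, 2.60 and 3.04 CPM, AL NK cells 7.58 and 5.75 CPM, and BM NK cells 5.001, 3.01 and 2.63 CPM. Here too the LPL libraries stood apart, and below them the 3 remaining tissue ILC groups of the adult (SG, AL 7R+ and AL 7R-) lay above 8 CPM while marrow, fetal and NK libraries lay below it. The difference between LPL ILC1s and SG G1-ILCs was 4.89 on the log2 scale (SE 0.32, adjusted p = 2.46e-12) and was the only neighbouring step that passed the test. Csf2 was higher in AL 7R- ILC1s than in FL G1-ILCs (log2 fold change 2.15, SE 0.33, adjusted p = 6.53e-06). It was also higher in AL 7R- ILC1s than in AL NK cells (1.14, SE 0.35, adjusted p = 0.0180), a call that was lost without AL NK replicate 1 (adjusted p = 0.0699), AL NK replicate 2 (0.167) or AL 7R- replicate 4 (0.0559). The gene Gm12223 runs antisense to Csf2 and shares 96 exon bases with it. It had 95 counts in the LPL libraries together and 0 to 2 counts in each other group, and the library kit does not mark strand.

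Tnf (chr17:35199381-35202007, minus strand) and Lta (chr17:35203165-35205351, minus strand) encode tumour necrosis factor and lymphotoxin-alpha, lie 1157 bases apart and signal through shared receptors. Tnf had 17.8, 25.2, 16.0 and 23.0 CPM in LPL ILC1s and 7.90 and 17.9 CPM in SG G1-ILCs. It had 11.6, 15.2 and 8.98 CPM in AL 7R+ ILC1s and 10.4, 11.97, 3.91 and 8.29 CPM in AL 7R- ILC1s. BM iILC1s had 4.32, 15.1 and 10.98 CPM and FL G1-ILCs 6.55, 6.08 and 4.13 CPM, against 3.79 and 0.959 CPM in AL NK cells and 2.83, 2.302 and 3.64 CPM in BM NK cells. Every ILC library was thus above every NK library. In the order of group means, neighbours overlapped except FL G1-ILCs and BM NK cells, and the adjusted p of that step was the smallest of the 7, at 0.148. Against AL NK cells, Tnf was higher in LPL ILC1s (log2 fold change 3.04, SE 0.57, adjusted p = 8.89e-05), SG G1-ILCs (2.38, SE 0.61, adjusted p = 0.00437) and AL 7R+ ILC1s (2.25, SE 0.58, adjusted p = 0.00670). It was also higher in BM iILC1s (2.03, SE 0.58, adjusted p = 0.0185) and AL 7R- ILC1s (1.79, SE 0.56, adjusted p = 0.0219), while FL G1-ILCs were at 1.18 (SE 0.58, adjusted p = 0.116). These calls lean on AL NK replicate 2, which had 4 Tnf counts. Without it the adjusted p was 0.152 for AL 7R+ ILC1s, 0.304 for AL 7R- ILC1s, 0.276 for BM iILC1s and 0.0901 for SG G1-ILCs, and only the LPL call remained. The calls were also lost without SG replicate 2 (adjusted p = 0.113), BM iILC1 replicate 2 (0.0951) and AL 7R- replicate 2 (0.0573), each for its own group. In marrow, BM iILC1s were 1.79 above BM NK cells on the log2 scale (SE 0.49, adjusted p = 0.0130), with an adjusted p of 0.105 without BM iILC1 replicate 2, 0.0544 without BM NK replicate 1 and 0.0754 without BM NK replicate 2.

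Lta was the least abundant member and gave another order. LPL ILC1s had 6.999, 7.46, 21.1 and 5.82 CPM and SG G1-ILCs 4.79 and 5.81 CPM. AL 7R+ ILC1s had 2.06, 4.41 and 5.30 CPM and AL 7R- ILC1s 1.24, 1.01, 1.01 and 0.754 CPM. BM iILC1s had 10.01, 11.4 and 4.79 CPM, FL G1-ILCs 6.92, 10.3 and 7.39 CPM, AL NK cells 0.541 and 1.68 CPM, and BM NK cells 1.17, 0.531 and 1.42 CPM. AL 7R- ILC1s, with 21 counts in 4 libraries, lay among the NK cells, and the other ILC groups lay above both. FL G1-ILCs carried more Lta than AL NK cells (log2 fold change 2.92, SE 0.67, adjusted p = 0.00110), and AL 7R- ILC1s less than FL G1-ILCs (-2.999, SE 0.51, adjusted p = 2.92e-05). Between the liver subsets, AL 7R+ ILC1s were above AL 7R- ILC1s by 1.96 (SE 0.53, adjusted p = 0.0240), although the adjusted p was 0.0581 to 0.161 when AL 7R+ replicate 2 or 3 or AL 7R- replicate 2, 3 or 4 was left out. BM iILC1s exceeded BM NK cells by 3.05 (SE 0.56, adjusted p = 3.54e-04). The higher value in LPL ILC1s than in AL 7R+ ILC1s (1.38, SE 0.47, adjusted p = 0.0170) rested on LPL replicate 3, at 21.1 CPM, and on AL 7R+ replicate 1, at 2.06 CPM (adjusted p = 0.162 and 0.0907 without them).

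Xcl1 (chr1:164931644-164935527, minus strand) encodes lymphotactin, the ligand of XCR1 on cross-presenting dendritic cells, and it graded the populations more finely. LPL ILC1s had 568, 678, 649 and 736 CPM and SG G1-ILCs 469 and 395 CPM. AL 7R+ ILC1s had 401, 305 and 373 CPM and AL 7R- ILC1s 387, 297, 389.6 and 399 CPM. BM iILC1s had 156, 212 and 183 CPM, FL G1-ILCs 116, 114 and 122 CPM, AL NK cells 69.8 and 92.8 CPM, and BM NK cells 88.5, 86.8 and 135 CPM. The adult tissue ILC groups, BM iILC1s and the FL and NK groups formed 3 levels that did not overlap, with LPL ILC1s on top. Neighbouring steps passed the test between LPL ILC1s and SG G1-ILCs (log2 fold change 0.61, SE 0.16, adjusted p = 0.00506), AL 7R+ ILC1s and BM iILC1s (0.97, SE 0.15, adjusted p = 8.49e-05) and BM iILC1s and FL G1-ILCs (0.65, SE 0.16, adjusted p = 0.00159). The LPL step was lost without SG replicate 2 (adjusted p = 0.128). Against AL NK cells, Xcl1 was higher by 2.18 in AL 7R- ILC1s (SE 0.18, adjusted p = 5.94e-10) and by 2.15 in AL 7R+ ILC1s (SE 0.19, adjusted p = 1.69e-09), and the 2 liver subsets differed by -0.03 (7R+ over 7R-, SE 0.14, adjusted p = 0.960). In FL G1-ILCs the excess over AL NK cells was 0.53 (SE 0.18, adjusted p = 0.0229), and it was lost without AL NK replicate 1 (adjusted p = 0.304) or FL replicate 4 (0.0528). Gm20743, antisense to Xcl1 over 98 exon bases, averaged 26.3 to 28.2 CPM in the 5 groups from LPL ILC1s to BM iILC1s, against 5.44 to 15.4 CPM in FL G1-ILCs and both NK groups, and its reads cannot be told from those of Xcl1 where the 2 overlap.

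Ccl3 (chr11:83647844-83649355, minus strand) and Ccl4 (chr11:83662584-83664683, plus strand) are neighbouring genes for the chemokines MIP-1alpha and MIP-1beta, which attract other leukocytes. Ccl3 had 1575, 1746, 2015 and 2188 CPM in LPL ILC1s and 162 and 113 CPM in SG G1-ILCs. It had 51.4, 54.5 and 75.7 CPM in AL 7R+ ILC1s, 83.3, 81.1, 68.0 and 106 CPM in AL 7R- ILC1s, and 14.1, 19.3 and 10.6 CPM in BM iILC1s. FL G1-ILCs had 38.2, 37.6 and 49.3 CPM, AL NK cells 50.9 and 126 CPM, and BM NK cells 54.5, 45.3 and 134 CPM. The LPL libraries lay above, and the BM iILC1 libraries below, all others. LPL ILC1s exceeded SG G1-ILCs by 3.77 on the log2 scale (SE 0.37, adjusted p = 4.97e-09) and AL 7R+ ILC1s by 4.94 (SE 0.33, adjusted p = 1.36e-12). BM iILC1s were lower than FL G1-ILCs (log2 fold change -1.50, SE 0.36, adjusted p = 0.00143), the next group up, and lower than BM NK cells by -2.40 (SE 0.35, adjusted p = 1.64e-05). FL G1-ILCs were below AL NK cells (-1.08, SE 0.34, adjusted p = 0.0152), a call that was lost without AL NK replicate 2 (adjusted p = 0.643) or the summed FL replicates 2 and 3 (0.0514).

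Ccl4 had 2644, 2909, 3303 and 3591 CPM in LPL ILC1s and 791 and 552 CPM in SG G1-ILCs. It had 278, 209 and 353 CPM in AL 7R+ ILC1s, 313, 343, 231 and 379 CPM in AL 7R- ILC1s, and 36.9, 59.5 and 52.3 CPM in BM iILC1s. FL G1-ILCs had 196, 192 and 221 CPM, AL NK cells 192 and 489 CPM, and BM NK cells 129, 101 and 247 CPM. The order was that of Ccl3 at both ends, with SG G1-ILCs now clear of the liver groups. SG G1-ILCs exceeded AL 7R- ILC1s by 1.09 (SE 0.28, adjusted p = 0.00369) and AL NK cells by 0.99 (SE 0.34, adjusted p = 0.0311). Both calls were lost without SG replicate 1 (adjusted p = 0.115 and 0.265), and the second also without AL NK replicate 1 (0.435). BM iILC1s were lower than AL NK cells (log2 fold change -2.77, SE 0.32, adjusted p = 4.90e-07) and BM NK cells (-1.68, SE 0.30, adjusted p = 2.38e-04).

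The 2 genes moved together from library to library, but not in a fixed ratio. Over the 24 libraries their log2 CPM had a Pearson correlation of 0.968, which was 0.921 over the 20 libraries without LPL ILC1s and 0.889 after group means were removed. Libraries of a group share tissue and sort gate, so this is a description. The ratio of Ccl4 to Ccl3 counts was 1.64 to 1.68 in LPL ILC1s and 4.87 and 4.90 in SG G1-ILCs. It was 3.40 to 5.40 in liver ILC1s of both kinds, 2.61 to 4.94 in BM iILC1s, 4.48 to 5.12 in FL G1-ILCs, 3.77 and 3.88 in AL NK cells, and 1.85 to 2.37 in BM NK cells. LPL ILC1s and BM NK cells were thus the 2 groups with the lowest ratios, and no library of another group overlapped them.

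**Figure D2:**
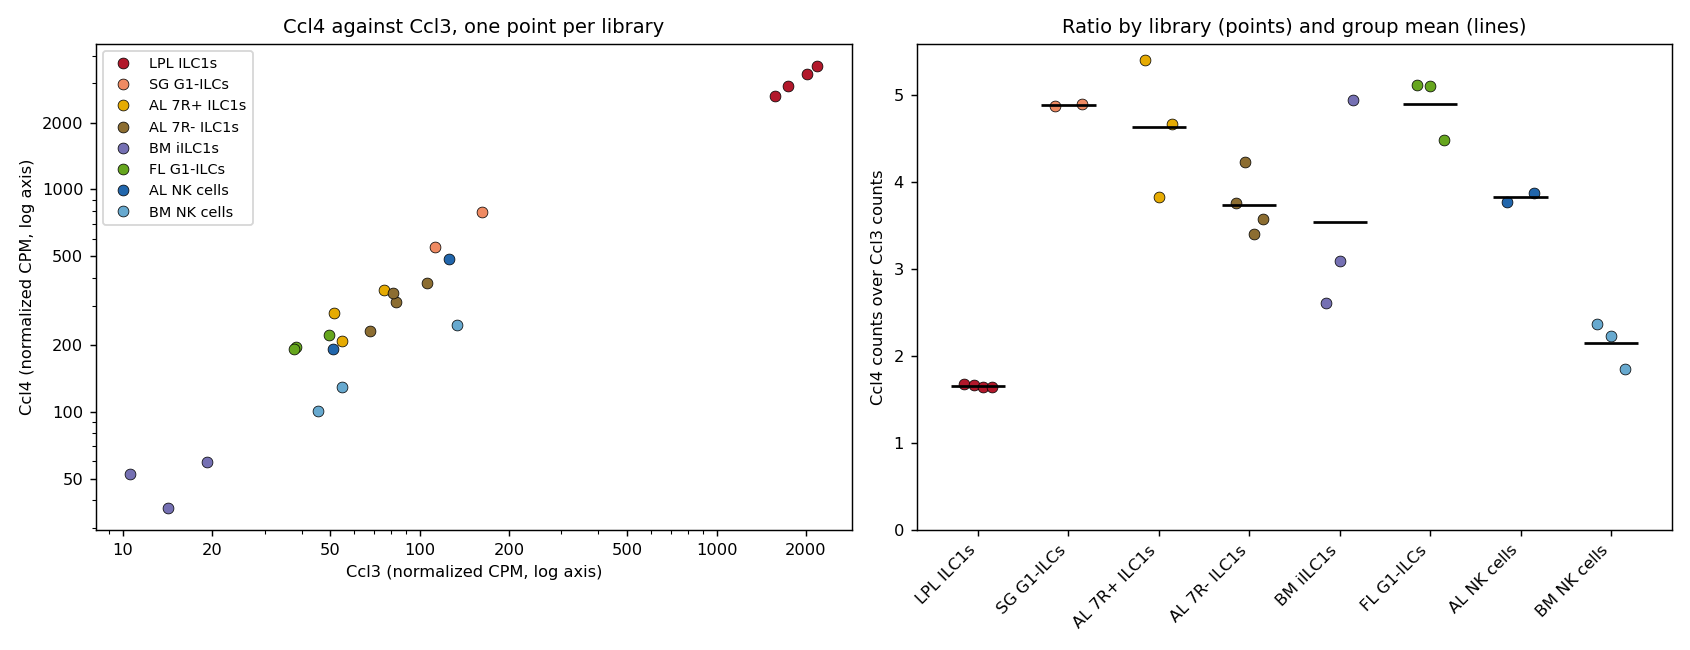
Left, Ccl4 against Ccl3 in normalized CPM (log axes), a point per library coloured by group. Right, the ratio of Ccl4 to Ccl3 counts per library by group. The LPL libraries sit at the top right of the scatter with a ratio of 1.64 to 1.68, below the 4.87 and 4.90 of SG G1-ILCs.

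Ccl5 (chr11:83525778-83530518, minus strand), which encodes RANTES and lies in the same chromosome region, was high everywhere and ordered the groups differently. LPL ILC1s had 2031, 2422, 2896 and 2704 CPM and SG G1-ILCs 985 and 962 CPM. AL 7R+ ILC1s had 2134, 1896 and 1883 CPM and AL 7R- ILC1s 4163, 3258, 3972 and 3448 CPM. BM iILC1s had 1661, 1620.0 and 1651 CPM, FL G1-ILCs 1438, 1713 and 1403 CPM, AL NK cells 2841 and 2995 CPM, and BM NK cells 1626, 1815 and 1921 CPM. AL 7R- ILC1s were above every library of every other group and SG G1-ILCs below. AL 7R+ ILC1s had less Ccl5 than AL 7R- ILC1s (log2 fold change -0.91, SE 0.10, adjusted p = 4.22e-07) and less than AL NK cells (-0.57, SE 0.12, adjusted p = 7.29e-04). AL 7R- ILC1s exceeded FL G1-ILCs by 1.29 (SE 0.10, adjusted p = 9.12e-11) and AL NK cells by 0.35 (SE 0.11, adjusted p = 0.0270). The last call did not survive leaving out AL 7R- replicate 1 or 3 (adjusted p = 0.0821 and 0.0661) or AL NK replicate 1 or 2 (0.227 and 0.110). AL NK cells exceeded BM NK cells by 0.71 (SE 0.12, adjusted p = 4.76e-04).

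**Figure D3:**
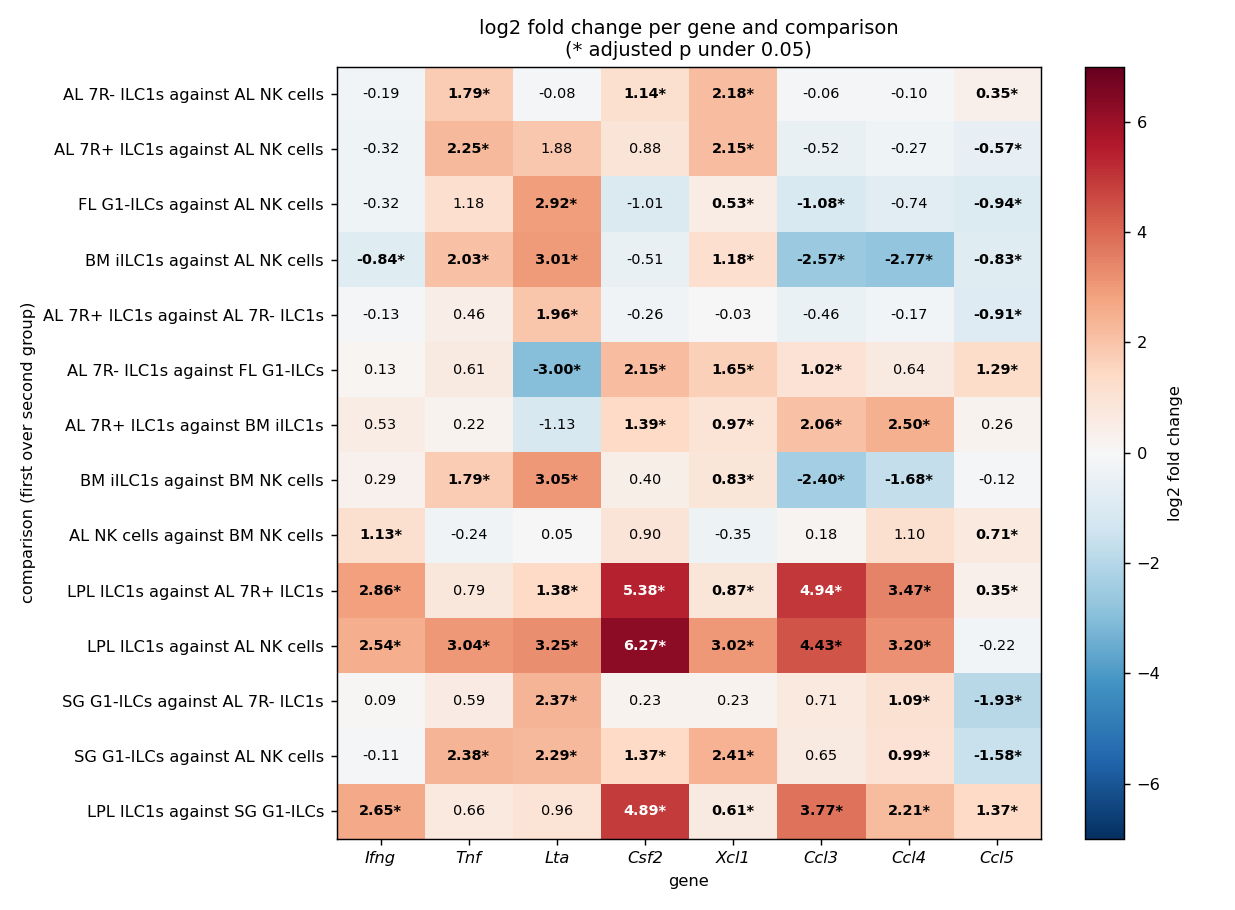
Log2 fold change of the 8 genes (columns) in 14 comparisons (rows, the first-named group over the second), with an asterisk where the adjusted p was under 0.05. Csf2 and Ccl3 have the deepest colours in the 3 rows of LPL ILC1s, with Csf2 up to 6.27, and Ccl3 and Ccl4 are lower in BM iILC1s than in both NK groups.

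Counted per comparison, 7 of 8 members were called in 2 of the 3 comparisons of LPL ILC1s and in that of BM iILC1s against AL NK cells. In LPL ILC1s against AL 7R+ ILC1s, 7 of 8 were higher and 0 lower, where 51.0% of all genes tested were called in either direction. The median log2 fold change of the members was 2.12 and that of all genes -0.02. Against SG G1-ILCs 6 were higher (35.5% of all genes called), the exceptions being Tnf (0.66, SE 0.48, adjusted p = 0.303) and Lta (0.96, SE 0.55, adjusted p = 0.178), and against AL NK cells 7 were higher (46.7%), the exception being Ccl5 (-0.22, SE 0.11, adjusted p = 0.110). For Csf2, Ccl3, Ccl4 and Ifng these 3 differences passed the test under every alternative tried. Csf2 stayed between 4.72 and 6.46 on the log2 scale over the 3 comparisons and Ifng between 2.28 and 3.04. By contrast, Ccl5 was only 0.35 higher in LPL ILC1s than in AL 7R+ ILC1s (SE 0.10, adjusted p = 0.00424), with overlapping libraries. That call was lost with no filter on low counts (adjusted p = 0.108) and at a log2 fold change of at least 1. TMM factors were 0.775 to 0.797 in LPL and 1.08 to 1.09 in AL 7R+ libraries, and Ccl5 was not tested without such scaling. SG G1-ILCs had 2 members higher than AL 7R- ILC1s, Lta and Ccl4, and 1 lower, Ccl5 (-1.93, SE 0.12, adjusted p = 1.04e-12), with 32.4% of all genes called. Against AL NK cells 5 were higher and 1 lower (27.0%), and 4 to 6 in all when 1 library was left out.

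Within the liver, AL 7R- ILC1s had 4 members higher than AL NK cells (Tnf, Csf2, Xcl1 and Ccl5; 20.4% of all genes called), of which 1 was left without AL NK replicate 2 and 2 without AL NK replicate 1, and AL 7R+ ILC1s had Tnf and Xcl1 higher and Ccl5 lower (15.6%). Xcl1 was higher than in AL NK cells in all 6 ILC groups. Between AL 7R+ and AL 7R- ILC1s, Lta was higher and Ccl5 lower (5.28% of all genes called), and the remaining 6 members had adjusted p values of 0.488 or more. AL 7R- ILC1s had 4 members higher than FL G1-ILCs (Csf2, Xcl1, Ccl3 and Ccl5) and 1 lower (Lta), where 42.6% of all genes were called. FL G1-ILCs differed from AL NK cells in 4 members (36.4%), with Lta and Xcl1 higher and Ccl3 and Ccl5 lower.

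In marrow, BM iILC1s had Tnf, Lta and Xcl1 higher than BM NK cells and Ccl3 and Ccl4 lower (12.1% of all genes called). Set against AL NK cells they had 3 members higher and 4 lower (12.0%), Ifng among the lower (-0.84, SE 0.25, adjusted p = 0.0252), which was lost without either AL NK library (adjusted p = 0.197 and 0.0659) or without BM iILC1 replicate 1 or 2 (0.105 and 0.0515). AL 7R+ ILC1s, which share the IL-7 receptor with BM iILC1s, exceeded them in 4 members (8.06%), namely Csf2 (1.39, SE 0.33, adjusted p = 0.00710), Xcl1, Ccl3 (2.06, SE 0.35, adjusted p = 2.19e-04) and Ccl4 (2.5, SE 0.30, adjusted p = 1.77e-06), while Lta was -1.13 (SE 0.49, adjusted p = 0.198). The Csf2 call was lost without AL 7R+ replicate 3 (adjusted p = 0.0901) or BM iILC1 replicate 1 (0.0673). AL and BM NK cells differed in 2 members (2.58%), Ifng and Ccl5, both higher in the liver. The difference of AL 7R+ ILC1s over AL NK cells was compared with that of BM iILC1s over BM NK cells in an interaction term, which called 2 members (3.09%): Xcl1 was 1.32 larger in liver (SE 0.24, adjusted p = 0.00108) and Ccl3 1.88 larger (SE 0.49, adjusted p = 0.0309), with Ccl4 at 1.40 (SE 0.43, adjusted p = 0.0817). For Ccl3 the adjusted p was between 0.0690 and 0.239 without any one of AL 7R+ replicate 3, BM iILC1 replicates 1 and 3, BM NK replicate 3 or AL NK replicate 1.

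Immediate-early genes, which respond within minutes to stimulation, handling or warmth, were read beside the members from a list of 20. They summed to 31500 to 35370 CPM in LPL ILC1s and 20220 to 21820 CPM in SG G1-ILCs, against 1440 to 2493 CPM in all other libraries. In LPL ILC1s 16 of 20 were higher than in AL 7R+ ILC1s and 0 lower (median log2 fold change 4.67), led by Atf3 (10.85), Fosb (9.42), Nr4a1 (7.93) and Fos (7.92), and in SG G1-ILCs 18 were higher than in AL 7R- ILC1s and 0 lower (median 3.49), led by Fos (12.26). The shares of all genes called were 51.0% and 32.4%. LPL ILC1s against SG G1-ILCs had a list median of 0.08, with genes called in both directions (8 higher, 4 lower, where 35.5% of all genes were called). Among them were Myc at 4.01, Gadd45b at 3.96 and Fos at -1.99. The same comparison gave differences of 2.65 in Ifng, 4.89 in Csf2 and 3.77 in Ccl3. SG G1-ILCs against AL 7R- ILC1s were at 0.09 in Ifng (SE 0.24, adjusted p = 0.827), 0.23 in Csf2 (SE 0.31, adjusted p = 0.612) and 0.71 in Ccl3 (SE 0.31, adjusted p = 0.0851). In that comparison Lta was higher by 2.37 (SE 0.58, adjusted p = 0.00222), and Ccl4 by the 1.09 given above. The part of this list in the LPL and SG values was not tested.

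**Figure D4:**
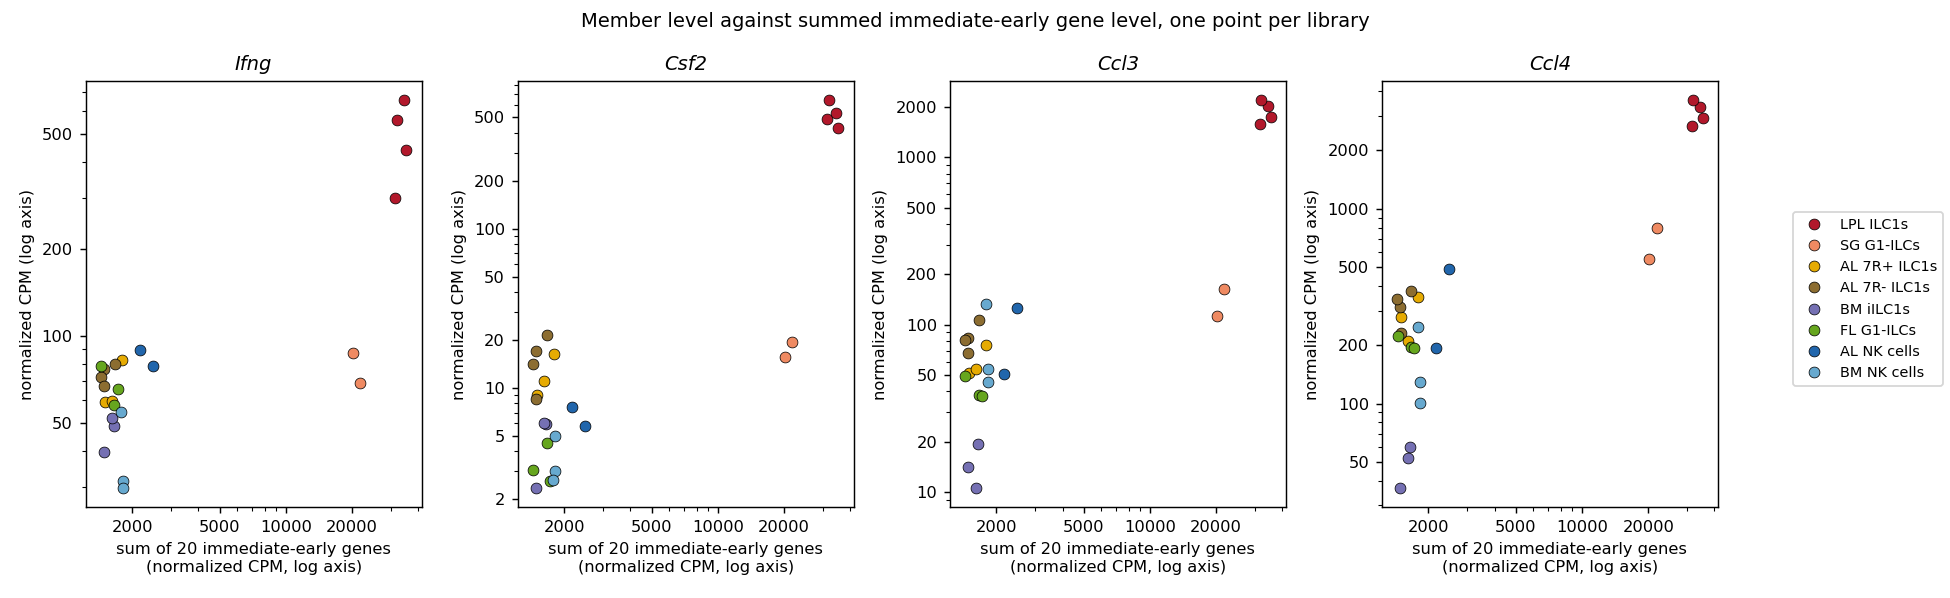
Ifng, Csf2, Ccl3 and Ccl4 in normalized CPM (log axis) against the summed CPM of 20 immediate-early genes (log axis), a point per library coloured by group. LPL libraries have sums of 31500 to 35370 CPM and high values of all 4 genes. SG libraries have sums of 20220 and 21820 CPM, with Csf2 at 15.7 and 19.5 CPM and Ifng at 87.2 and 68.8 CPM. Their Ccl3 is at 113 and 162 CPM. Their Ccl4 is at 552 and 791 CPM, above all other libraries outside LPL ILC1s.

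Components and targets of the NF-kappaB and NFAT pathways, through which activated lymphocytes switch on these genes, had their highest sum in LPL ILC1s. The list of 18 summed to 15860 to 17820 CPM in LPL ILC1s and 4024 to 4574 CPM in SG G1-ILCs, against 1636 to 2619 CPM elsewhere. LPL ILC1s had 14 higher and 1 lower than AL 7R+ ILC1s (median log2 fold change 2.72) and 15 higher and 1 lower than SG G1-ILCs (median 1.84), among them Nfkbiz (4.97 and 3.86) and Rel (3.81 and 2.74). Of all genes, 51.0% and 35.5% were called in these 2 comparisons. Genes that control interferon-gamma production were mixed. Of 15, LPL ILC1s had 9 higher and 3 lower than AL 7R+ ILC1s, with Eomes (4.17), Irf8 (3.40), Ikzf2 (2.83) and the IL-12 receptor chain Il12rb2 (1.58) higher, and 9 higher and 3 lower than SG G1-ILCs, with both IL-18 receptor chains, Il18r1 (4.54) and Il18rap (3.90), among the higher. AL 7R- ILC1s had 6 higher and 8 lower than AL NK cells, with Eomes (-7.08), Il18r1 (-4.68) and Il18rap (-3.04) lower, beside the Ifng difference of -0.19 that did not pass the test. Of all genes, 20.4% were called between these groups.

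Transcripts of proteins that act on AU-rich elements also differed. Of 12 decay regulators, LPL ILC1s had 6 higher and 3 lower than AL 7R+ ILC1s. Zc3h12a, which encodes the ribonuclease regnase-1, was at 3.64 and Zfp36 at 1.74. SG G1-ILCs had 5 higher and 1 lower than AL 7R- ILC1s, with Zfp36 at 2.66. Of all genes, 51.0% and 32.4% were called in these 2 comparisons. Among 11 tested receptors of the members, 5 were higher and 0 lower in LPL ILC1s than in AL 7R+ ILC1s (45.5% called, against 51.0% of all genes), including the interferon-gamma receptor chain Ifngr1 (2.42) and the TNF receptor Tnfrsf1b (1.88). Of 16 other cytokines tested, 8 were higher and 3 lower in LPL ILC1s than in AL 7R+ ILC1s (68.8% called, against 51.0% of all genes). The higher were led by Areg (272.7 ± 87.0 CPM in 4 LPL libraries, 3 counts in all 3 AL 7R+ libraries together) and Il22 (106 ± 80.8 CPM, and 1 count). In AL 7R- ILC1s 6 were higher and 2 lower than in AL NK cells, where 20.4% of all genes were called. Among the higher were the death ligands Tnfsf10 (TRAIL; 4.66, SE 0.29, adjusted p = 2.09e-12) and Fasl (0.41, SE 0.10, adjusted p = 0.00235). The lymphotoxin-beta gene Ltb (2.45, SE 0.13, adjusted p = 5.70e-14), whose product pairs with lymphotoxin-alpha, was also higher. Ltb was thus high in AL 7R- ILC1s, where Lta was at the level of NK cells. Other chemokines were few: 3 of 10 tested were higher and 1 lower in LPL ILC1s than in AL 7R+ ILC1s (40.0% called, below the 51.0% of all genes), with Cxcl10 at 1.99 (SE 0.79, adjusted p = 0.0377).

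For each member, the 3 genes whose log2 CPM correlated best with it over the 24 libraries were looked up among 8068 well expressed genes. Libraries of a group are not independent points, and the LPL libraries weigh heavily. Csf2 was closest to Gadd45b (r = 0.980), Plin2 and Selenok (0.967 each), Ifng to the chaperone gene Hspa5 (0.955), Dad1 (0.948) and Pqbp1 (0.945), and Ccl3 to Ccl4 (0.968), Bhlhe40 (0.955) and Hspa13 (0.954). Ccl4 was closest to Ccl3, Gem and Dad1 (0.929 each for the last 2). Xcl1 was closest to Ptpn22 (0.960), Itm2c (0.947) and Lpxn (0.937), Tnf to Atxn1 (0.873), Slc30a9 (0.867) and Lysmd2 (0.861), Lta to Ivns1abp (0.80), Serpinb1a (0.799) and Tcea1 (0.782), and Ccl5 to Lck (0.837), Ebag9 (0.80) and Gnptg (0.791). Among the members themselves, Ifng and Csf2 correlated at 0.937 over all libraries, 0.564 without LPL ILC1s and 0.208 within groups, and Csf2 and Ccl3 at 0.916, 0.501 and 0.06, so both correlations were lower without the LPL libraries. Lta and Ccl5 ran against each other, at -0.444 over all libraries and -0.665 without LPL ILC1s, but at 0.275 within groups.

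Promoter sequences from RefSeq (GRCm38.p6, 250 bases before to 50 bases after the start site) were found for 6 of the 8 members, all but Ccl4 and Ccl5. The 4 motifs named next were searched on both strands. The NFAT core GGAAA was present in all 6, with 3 matches each in Tnf, Lta and Csf2, 2 in Ccl3 and 1 each in Ifng and Xcl1, but 61.3% of 32817 mouse promoters of this length hold it. The AP-1 motif TGANTCA (7.81% of promoters) and the kappaB consensus (8.46%) matched none of the 6, and the T-box core TCACACC (3.98%) matched Xcl1 alone, which speaks only of these letters in this window. The start site that RefSeq gives for Csf2 lies upstream of the gene model used for its position here, so its matches refer to that upstream window. The promoters of Ifng and Ccl3, both higher in LPL ILC1s in every comparison made, are given over the 250 bases before the start site, 5' to 3' on the gene's strand, with GGAAA or its reverse complement in capitals.
Ifng (chr10:118440796-118441045, plus strand): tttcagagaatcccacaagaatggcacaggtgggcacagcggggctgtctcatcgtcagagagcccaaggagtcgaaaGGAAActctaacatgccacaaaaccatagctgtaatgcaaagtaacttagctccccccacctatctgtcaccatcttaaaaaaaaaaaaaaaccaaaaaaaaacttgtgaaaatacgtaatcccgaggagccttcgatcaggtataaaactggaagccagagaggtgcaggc
Ccl3 (chr11:83649379-83649628, minus strand): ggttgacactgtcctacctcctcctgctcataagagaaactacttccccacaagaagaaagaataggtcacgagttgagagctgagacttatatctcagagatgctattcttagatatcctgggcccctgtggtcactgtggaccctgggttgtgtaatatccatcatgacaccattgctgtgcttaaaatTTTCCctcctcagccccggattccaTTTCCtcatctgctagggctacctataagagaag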

How the data were processed

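RNA of sorted cells was amplified with the SMART-seq HT kit, which does not mark strand. Per the submitters' processing notes, reads were handled with fastp 0.23.0, HISAT2 2.1.0 and featureCounts (Subread 1.6.5) on mm10; the annotation release and the treatment of multi-mapping reads are not given in the sources used here. The deposited table holds raw read counts per gene, not normalized by the authors, for 25 libraries. Totals were between 2302643 and 7995906 counts, so single-digit counts of Tnf and Lta in NK cells carry large counting error. Positions and 3' UTRs came from GENCODE vM21 (GRCm38; the transcript with the longest coding sequence), promoters from RefSeq. Identifiers without a symbol (935) held 0.104% of counts, and Flt3l of the cytokine list was not used here.

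Counts were scaled by TMM, filtered with filterByExpr (minimum count 10; 14123 genes kept) and fitted in 1 model of 8 groups with edgeR 4.0.16 (quasi-likelihood test, R 4.3.3, adjusted p under 0.05, Benjamini-Hochberg). CPM are TMM-normalized. FL replicates 2 and 3 were summed. The scripts were tested on simulated data. Genes other than the 8 members were named by rule: the 3 best correlated genes per member with an average log2 CPM of at least 4, and up to 4 called genes per list with the largest fold change at that level; Kit, Il22 and the gate genes were given as markers. Some genes of these lists are not reported here. The members and lists were chosen with earlier results of these data known. Alternatives were DESeq2 1.42.0, RLE scaling, no filter, a minimum count of 30, the replicate number as a block, all 25 libraries separate, thinning to 3752189 counts per library, only the groups compared, a log2 fold change of at least 1, and leaving out each library.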

Additional observations from a re-analysis of the deposited data

Results flagged for a closer look

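Of 16 sets of 4 libraries (8 genes in LPL ILC1s and in AL 7R- ILC1s), 2 had a library whose gap to its nearest neighbour exceeded Dixon's critical share of the range, which chance does in about 1 in 20. Lta was 21.09 CPM in LPL replicate 3, against 5.82 to 7.46 CPM in the other 3 LPL libraries (share 0.893). Xcl1 was 296.7 CPM in AL 7R- replicate 2, against 387 to 399 CPM in the other 3 AL 7R- libraries (share 0.881). For 2 genes, the excess of ILC1s over NK cells differed between liver and marrow in an interaction term: by 1.32 on the log2 scale for Xcl1 and by 1.88 for Ccl3.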

How the results depend on the processing

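No difference that passed the test turned its direction under an alternative, but 26 values, in 15 comparisons of a member, changed sign without passing in either setting, such as Ccl3 in AL 7R- ILC1s against AL NK cells (0.72 without AL NK replicate 2, in place of -0.06). Of 3957 values of a single member under an alternative, 3820 stayed on the same side of the threshold, 59 newly passed it and 78 no longer did, and 3 could not be had because the member was filtered out with only the groups compared. All 8 members differed among the groups in every setting. The number of members called moved by over 1.5 times in these cases. AL 7R+ ILC1s against AL NK cells had 5 with no filter on low counts, in place of 3. AL 7R- ILC1s against AL NK cells had 2 with only the groups compared, in place of 4. AL 7R+ against AL 7R- ILC1s had 1 with only the groups compared or at a log2 fold change of at least 1, in place of 2. With that fold limit FL G1-ILCs against AL NK cells had 2 in place of 4, and AL against BM NK cells 1 in place of 2.

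Leaving out 1 library at a time, the number called ranged between 1 and 4 with AL 7R- ILC1s set against AL NK cells, 1 and 2 for AL 7R+ against AL 7R- ILC1s, 1 and 3 for AL against BM NK cells, and 1 and 3 for the liver and marrow interaction; it was 6 to 7, 5 to 6 and 7 to 8 for LPL ILC1s against AL 7R+ ILC1s, SG G1-ILCs and AL NK cells. Without 1 AL NK library a single library stands for that group and is assumed to vary like the others.

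The replicate numbers are not known to pair libraries: deviations of same-numbered libraries from their group means correlated at -0.0046 on average and those of other numbers at 0.00172, and 5 of 25 libraries correlated best with their own number. With the replicate block, 1 member was called between AL 7R+ and AL 7R- ILC1s in place of 2, and 1 in the interaction in place of 2. Ccl5 in AL 7R- ILC1s against AL NK cells also lost its call (adjusted p = 0.0554). Over all genes, AL against BM NK cells moved between 365 called with edgeR and 617 with DESeq2. Groups of 2 libraries (SG G1-ILCs, AL NK cells) and single-digit counts of Tnf and Lta limit the comparisons. CPM are shares of a library, so a change in total RNA per cell is not seen.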
